A study of Mus musculus with 4 samples.

Results

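Expression of 9 genes of microglial identity and complement was examined in single cells of the mouse forebrain: *C1qa*, *C1qb*, *C1qc*, *Cx3cr1*, *P2ry12*, *Tmem119*, *Csf1r*, *Trem2* and *Tyrobp*. The genes were chosen by symbol, and each matched 1 of the 32285 genes of the deposited matrices. Cells were collected at postnatal day 5 (P5) from C57BL/6 mice of the genotypes NestinCreERT2/tdTomato/Chd8+/+ (control) and NestinCreERT2/tdTomato/Chd8+/F (mutant), and those positive for tdTomato were isolated by sorting. Both genotypes carried the tamoxifen-inducible Cre driven by Nestin and the tdTomato reporter and received tamoxifen at the midfetal stage, and in the mutant the loxP-flanked exons of 1 *Chd8* allele were removed in Nestin-positive progenitor cells. The study compared the genotypes with 2 libraries each (control replicates 1 and 2, mutant replicates 1 and 2), and each library pooled cells of 3 mice. A p-value here therefore measures the spread between pools and not between mice.

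The labels describe the sorted cells as neuronal, but every library also held cells with microglial and border macrophage markers. Cells were named from markers that did not include any of the 9 genes, and the 9 genes were also left out of the clustering. Of 27742 barcodes, 17623 cells passed the filters, of which 253 were microglia-like (142 and 22 in control replicates 1 and 2, 49 and 40 in mutant replicates 1 and 2) and 110 were border macrophage-like (62, 13, 23 and 12 in the same order). They are called microglia and border macrophages below. The summed level of the microglial markers was 9641 to 11988 CPM (counts per 1000000 unique molecular identifiers, UMIs) in the microglia of the 4 libraries and 1999 to 2806 CPM in border macrophages. The summed level of the border macrophage markers was 11168 to 17337 CPM in border macrophages and 555 to 954 CPM in microglia. A list of neuronal and glial genes summed to 137 to 316 CPM in microglia, 1162 to 2571 CPM in border macrophages and 4690 to 5269 CPM in inhibitory neurons.

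The libraries held 46274374 to 79328841 UMIs, and those of replicate 2 were shallower, with 37.8 to 44.0% of barcodes over the mitochondrial limit against 9.38 to 12.3% in replicate 1. *Xist*, an RNA made from the inactive X in female cells, stood at 0.149 and 0.153 CPM in replicate 1 of the control and the mutant and at 1633 and 1749 CPM in replicate 2, whereas the study states that its single-cell samples were male. The libraries thus differed between replicate numbers in ways that genotype did not. Pairs of libraries shared 2 to 15 cell barcodes. *Chd8* was counted at 47.7 and 53.3 CPM in the microglia of control replicates 1 and 2 and at 52.1 and 46.5 CPM in those of mutant replicates 1 and 2. Its level in inhibitory neurons was 83.6 and 107 CPM in the control replicates and 91.2 and 138 CPM in the mutant replicates. Because the assay counts 3′ ends, which lie outside the deleted exons, these values do not check the deletion.

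Microglia are the resident macrophages of the brain. They arise from yolk sac progenitors and not from the neural lineage in which Nestin-driven Cre is active, whereas border macrophages occupy the meninges and perivascular spaces. The 3 C1q genes encode the chains of the protein that recognizes targets for the classical complement pathway, which in the developing brain tags synapses and debris for removal. CSF1R is the receptor for the survival factors CSF1 and IL-34, CX3CR1 is the receptor for the neuronal chemokine fractalkine, P2RY12 senses extracellular ADP, and TMEM119 is a membrane protein used to mark microglia. TREM2 is a lipid-sensing receptor that signals through the adaptor TYROBP (DAP12).

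The 3 C1q genes are neighbours on chromosome 4 in mm10 (GENCODE vM21), all on the minus strand: *C1qb* at chr4:136880129-136886187, *C1qc* at chr4:136889804-136893065 and *C1qa* at chr4:136895917-136898803. *Trem2* occupies chr17:48346401-48354147 on the plus strand, and *Tyrobp* chr7:30413760-30417585 on the plus strand. *Tmem119* occupies chr5:113793729-113800516 on the minus strand. *P2ry12*, at chr3:59216272-59262871 on the minus strand, lies entirely inside *Med12l*, which is transcribed from the opposite strand. *Cx3cr1*, at chr9:119901616-120069879 on the minus strand, is annotated over 168264 bases, of which 163759 are intronic, and spans *Gorasp1*, *Csrnp1* and *Xirp1* on its own strand and *Ttc21a* on the other.

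Promoter sequence was available for 5 of the 9 genes (RefSeq, GRCm38.p6, 250 bases before to 50 after the start). The sequences below are shown because *Spi1*, which encodes the myeloid factor PU.1, was counted at 431 CPM in microglia and 369 CPM in border macrophages and at most at 1.34 CPM in any other named type, the same 2 types that held nearly all counts of the 9 genes. Capitals mark GAGGAA, a core of PU.1 sites, or TTCCTC where it lies on the other strand; only bases upstream of both the RefSeq and the GENCODE start are printed, 5′ to 3′ in the direction of the gene.
C1qb, chr4:136886201-136886450, minus strand: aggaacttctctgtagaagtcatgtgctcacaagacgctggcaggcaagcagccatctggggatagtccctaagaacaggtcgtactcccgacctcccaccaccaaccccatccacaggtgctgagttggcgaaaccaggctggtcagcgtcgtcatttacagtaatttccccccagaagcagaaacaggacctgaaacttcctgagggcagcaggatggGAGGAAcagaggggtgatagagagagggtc
C1qc, chr4:136893066-136893164, minus strand: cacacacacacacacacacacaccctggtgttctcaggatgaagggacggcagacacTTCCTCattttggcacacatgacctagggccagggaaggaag
Trem2, chr17:48346151-48346400, plus strand: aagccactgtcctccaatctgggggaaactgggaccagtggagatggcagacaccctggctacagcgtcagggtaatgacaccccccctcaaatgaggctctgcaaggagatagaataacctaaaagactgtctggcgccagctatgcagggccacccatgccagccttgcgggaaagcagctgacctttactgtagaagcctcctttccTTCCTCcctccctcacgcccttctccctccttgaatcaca
P2ry12, chr3:59262986-59263235, minus strand: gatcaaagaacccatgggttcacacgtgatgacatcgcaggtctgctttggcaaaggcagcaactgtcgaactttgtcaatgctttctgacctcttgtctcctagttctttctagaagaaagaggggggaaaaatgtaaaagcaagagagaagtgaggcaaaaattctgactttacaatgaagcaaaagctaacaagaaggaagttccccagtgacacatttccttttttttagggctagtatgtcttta
The core began 30 bases before the RefSeq start of *C1qb* on the strand of the gene. On the opposite strand it began 193 bases before the RefSeq start of *C1qc* and 40 before that of *Trem2*. For *C1qc* the printed bases end at the GENCODE start, which lies upstream of the RefSeq start. No core was found in the 300-base windows of *P2ry12* and *Cx3cr1*. Of 32817 mouse promoters of the same length, 28.27% held GAGGAA on either strand, against 3 of these 5. The longer GAGGAAGT, which contains the core, was found in 3.2% of all promoters and in that of *C1qc*, and TATAAA in 13.62% of all and in 0 of the 5.

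Counts of the 9 genes came almost entirely from the immune cells. Microglia made up 74.0% and border macrophages 22.5% of their UMIs, and the other 17260 cells 3.44%. By library, immune cells held 97.3% and 97.3% of these UMIs in control replicates 1 and 2 and 93.2% and 98.1% in mutant replicates 1 and 2. A mean microglial cell carried 237 UMIs of the 9 genes and a border macrophage 166, while any other cell carried 0.161. All 9 genes were found in 54.2% of microglia and 12.7% of border macrophages. When each cell was thinned once at random to 4000 UMIs, which left out 31 microglia and 2 border macrophages below that depth, the shares were 30.6% and 1.85%. Separate draws for control replicates 1 and 2 and mutant replicates 1 and 2 gave 29.9, 55.6, 33.3 and 46.4% of microglia. For border macrophages they gave 6.45, 0, 0 and 9.09%.

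**Figure D1:**
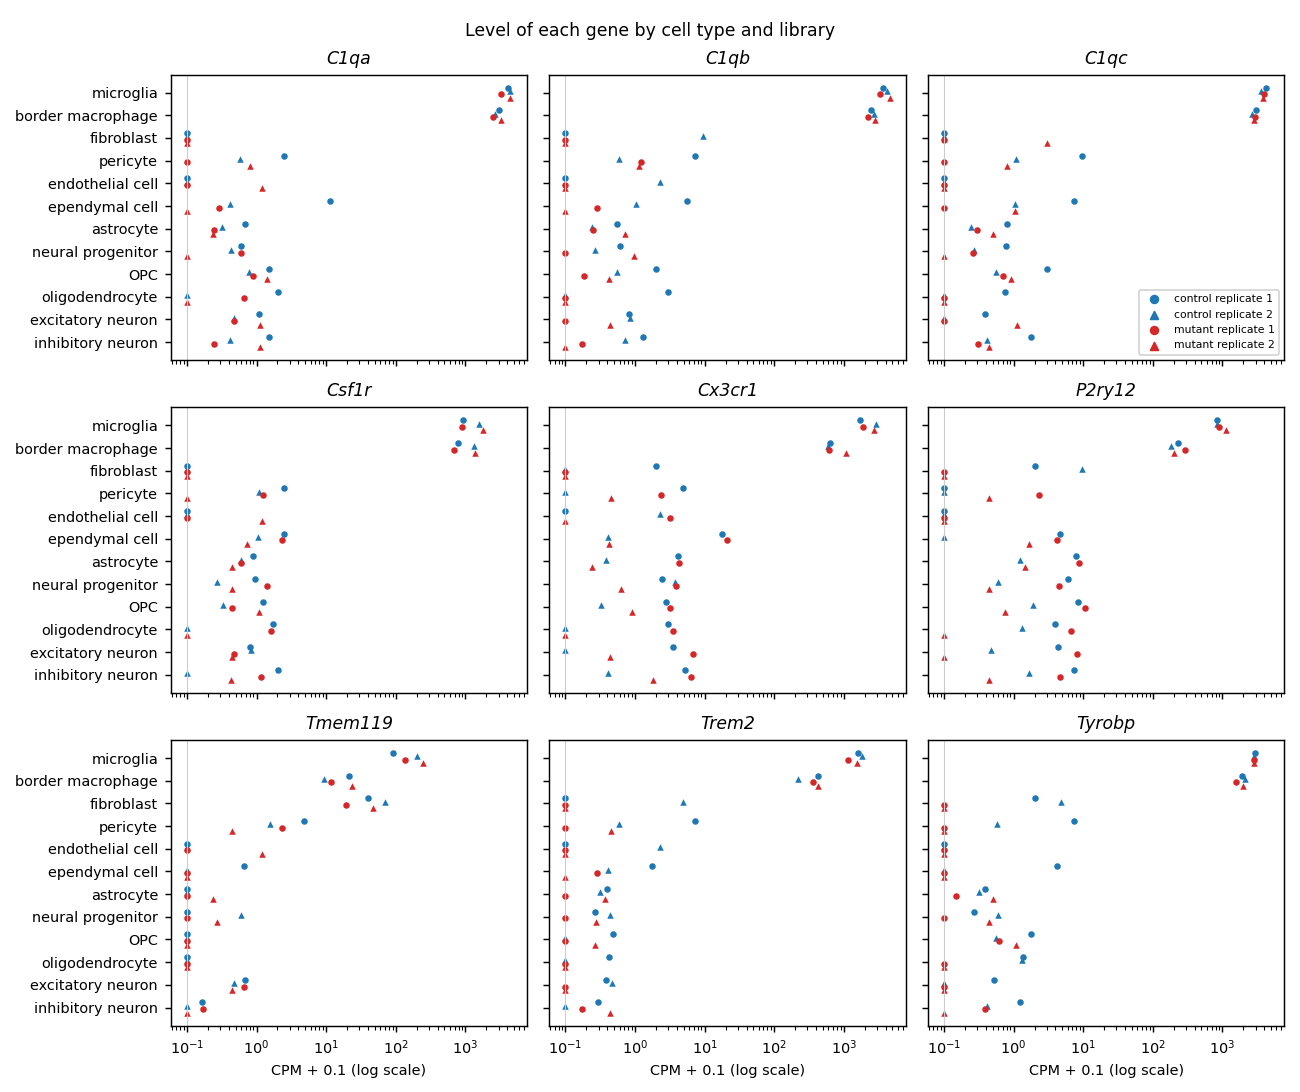
Level of each gene in the summed cells of each type and library (CPM plus 0.1, log axis), with circles for replicate 1, triangles for replicate 2, blue for control and red for mutant; sums of fewer than 10 cells are left out. In 8 panels the points of microglia and border macrophages lie at the far right, and for *Tmem119* fibroblasts lie between microglia and border macrophages.

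The C1q genes were high in both immune types. *C1qa* was at 4067 and 4379 CPM in the microglia of control replicates 1 and 2 and at 3218 and 4378 CPM in those of mutant replicates 1 and 2. In border macrophages its levels were 3029, 2699, 2500 and 3285 CPM in the same order. The 2 types overlapped, since the highest border macrophage value lay above the lowest microglial one. *C1qb*, which encodes the second chain, was at 3626, 4194, 3304 and 4558 CPM in microglia and at 2424, 2745, 2253 and 2801 CPM in border macrophages. *C1qc* was at 4287, 3642, 4007 and 3800 CPM in microglia and at 3033, 2671, 2968 and 2809 CPM in border macrophages. For *C1qb* and *C1qc* every microglial library was above every border macrophage library.

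The make-up of the C1q counts was close to even. In microglia, *C1qa*, *C1qb* and *C1qc* accounted for 33.6, 31.4 and 35.1% of the C1q UMIs. In border macrophages the shares were 34.9, 29.4 and 35.7%. Within microglia the share of *C1qc* went with the replicate number, at 35.8 and 38.1% in control and mutant replicate 1 and 29.8% in both libraries of replicate 2, and the 95% intervals (exact Clopper-Pearson, counting error only) of the 2 replicates were apart. In border macrophages *C1qc* made up 35.7 and 38.4% of C1q UMIs in replicate 1 and 32.9 and 31.6% in replicate 2.

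Among the receptors, *Cx3cr1* was at 1696 and 2901 CPM in the microglia of control replicates 1 and 2 and at 1870 and 2753 CPM in those of mutant replicates 1 and 2, against 637, 599, 606 and 1069 CPM in border macrophages. *Csf1r*, the receptor on which both cell types depend, was at 932, 1569, 890 and 1775 CPM in microglia and at 776, 1336, 697 and 1389 CPM in border macrophages. Its ranges in the 2 types overlapped, while in both types the replicate 2 libraries were the higher. *P2ry12* was at 826, 828, 909 and 1144 CPM in microglia and at 229, 184, 288 and 203 CPM in border macrophages. *Tmem119* was the least counted, at 90.6, 203, 137 and 243 CPM in microglia and at 21.1, 9.21, 11.8 and 23.4 CPM in border macrophages, where these rest on 19, 1, 4 and 3 UMIs. In microglia *Cx3cr1*, *Tmem119* and *Csf1r* were each higher in both replicate 2 libraries than in both replicate 1 libraries.

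*Trem2* was at 1609 and 1811 CPM in the microglia of control replicates 1 and 2 and at 1157 and 1539 CPM in those of mutant replicates 1 and 2. In border macrophages it was at 428, 221, 362 and 421 CPM, so the 2 types were far apart in every library. *Tyrobp*, its signalling partner, was the steadiest of the 9 in microglia, at 2938, 2853, 2859 and 2812 CPM, and was at 1934, 2128, 1582 and 1982 CPM in border macrophages.

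Shares of cells with at least 1 UMI were larger in microglia for *P2ry12*, *Cx3cr1*, *Trem2* and *Tmem119*. For the other 5 genes they were slightly larger in border macrophages, as for *C1qa* (100% against 96.8%) and *Csf1r* (98.2% against 96.4%). At least 92.1% of microglia held a UMI of each gene other than *Tmem119*, which was found in 54.5% (95% interval 48.2 to 60.8%). Of border macrophages, 81.8% held *P2ry12*, 85.5% *Cx3cr1*, 86.4% *Trem2* and 13.6% *Tmem119* (7.84 to 21.5%), and at least 98.2% held each of the other 5. In the draw of 4000 UMIs per cell over all libraries, *P2ry12* was found in 84.7% of microglia and 54.6% of border macrophages, and *Tmem119* in 32.0% and 5.56%. In inhibitory neurons, which should lack these transcripts, 0.052 to 3.77% of cells held a UMI of a given gene, at a median depth of 7362 UMIs against 10624 in microglia and 11331 in border macrophages.

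The difference between the 2 immune types was tested with edgeR on counts summed per library and type, with the library as a block. *P2ry12* was higher in microglia by 1.98 on the log2 scale (SE 0.17, adjusted p = 1.02e-06), *Trem2* by 2.04 (SE 0.19, adjusted p = 1.61e-06) and *Cx3cr1* by 1.65 (SE 0.15, adjusted p = 1.63e-06). Smaller differences were found for *C1qb* (0.62, SE 0.10, adjusted p = 0.000365), *Tyrobp* (0.60, SE 0.11, adjusted p = 0.00103), *C1qc* (0.46, SE 0.10, adjusted p = 0.00302) and *C1qa* (0.48, SE 0.10, adjusted p = 0.00374). For *Csf1r* the difference was 0.31 (95% interval 0.050 to 0.56) and did not pass the threshold (adjusted p = 0.0971). *Tmem119* entered this test only through its counts in microglia, so its fitted difference of 2.64 (SE 0.29) is given as a description. Each of the other 8 was higher in microglia in 4 of 4 libraries. Across all 5071 genes tested, 18.7% passed in either direction and 8.52% were higher in microglia. Of the 4184 genes above the low-count filter in each type on its own, 17.2% passed and 7.43% were higher in microglia, against 7 of these 8, and their median log2 difference was -0.052. The types were separated by other genes of the same cells, so these p-values describe how far types defined in this way lie apart.

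The smaller differences depended on which cells counted as border macrophages. A cluster of 27 border macrophages led by *Ms4a7* and *Cd86* had a median of 21375 UMIs and 5309 CPM of the neuronal and glial list, against 250 and 148 CPM in the other clusters of the type, and the doublet caller Scrublet marked 18 of its cells. Its levels of *C1qa*, *C1qb*, *C1qc*, *Tyrobp* and *Csf1r* were 1792, 1539, 1794, 1121 and 451 CPM. In the cluster led by *Pf4* the same genes stood at 3982, 3290, 3806, 2398 and 1125 CPM, and in that led by *Ccl7* at 3301, 2789, 3749, 2371 and 1128 CPM. Without the *Ms4a7*-led cluster, an alternative chosen after seeing the data, the log2 difference was 0.31 for *C1qb* (adjusted p = 0.0480) and 0.30 for *Tyrobp* (adjusted p = 0.0421). It no longer passed for *C1qa* (0.15, adjusted p = 0.352) and *C1qc* (0.13, adjusted p = 0.406). *Csf1r*, which had not passed with the cluster, was at -0.038 (95% interval -0.28 to 0.21). *P2ry12* (2.12), *Trem2* (2.19) and *Cx3cr1* (1.64) stayed past the threshold. Leaving out control replicate 1, the library with the most immune cells, also took *C1qc* just out of the calls (0.44, adjusted p = 0.0573), and without the *Spp1*-high microglial cluster described below *Csf1r* passed (0.44, adjusted p = 0.0252) and *Tyrobp* did not (0.30, adjusted p = 0.0842).

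**Figure D2:**
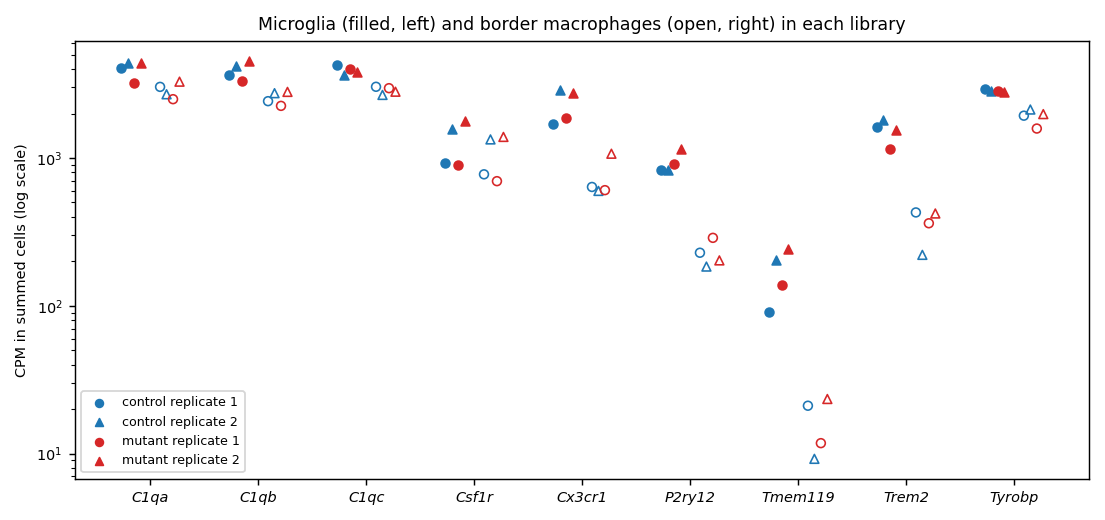
Level of each gene (CPM in summed cells, log axis) in microglia (filled) and border macrophages (open) of each library, with circles for replicate 1, triangles for replicate 2, blue for control and red for mutant. The 2 types are far apart for *Trem2*, *P2ry12*, *Tmem119* and *Cx3cr1* and close or overlapping for the C1q genes and *Csf1r*.

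Genes that work with the 9 were taken from lists chosen by function, and those above the low-count filter in each type on its own are counted here, beside the 17.2% of all such genes that passed and the 7.43% that were higher in microglia. Of 21 other complement genes, 5 could be counted. *Itgam*, a chain of complement receptor 3, was the 1 higher in microglia (log2 1.36), and the C5a receptor *C5ar1* (-1.54) was 1 of 2 that were lower, with a median of 0.11 over the 5. Downstream of TREM2 and TYROBP, 10 of 12 listed genes could be counted, of which *Plcg2* (1.45), *Inpp5d* (0.95) and *Vav1* (0.91) were higher in microglia and *Pik3cg* (-0.72) was lower, with a median of 0.11. Of 11 myeloid transcription factors, 9 could be counted and 3 were higher in microglia, among them *Ikzf1* (1.01) and *Irf8* (0.75), while *Maf* (-1.14) was lower, with a median of 0.21.

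Ligands of these receptors were counted in different cells. *Il34*, a ligand of CSF1R, was at 135 CPM in pericytes and 78.0 CPM in fibroblasts and had no UMI in microglia. *Csf1*, the other ligand, was highest in microglia themselves (224 CPM, 208 to 273 CPM by library) and was at 12.9 CPM in border macrophages (0 to 46.1 CPM by library). *Cx3cl1*, the ligand of CX3CR1, was at 26.4 CPM in oligodendrocyte precursor cells (OPCs) and 18.3 CPM in endothelial cells and had no UMI in microglia. *Apoe*, which encodes a lipid carrier bound by TREM2, was at 15297 CPM in microglia, 15460 CPM in border macrophages and 12738 CPM in astrocytes.

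Microglia were not uniform for these genes. In a cluster of 55 microglia led by *Spp1* and *Gpnmb*, genes associated with phagocytic microglia of developing white matter, *P2ry12* was at 347 CPM, against 682 to 1696 CPM in the other 5 clusters, and *Tmem119* was at 14.9 CPM, against 141 to 216 CPM. *Trem2* was at 2036 CPM there (against 857 to 1696) and *Tyrobp* at 4149 CPM (against 1694 to 2950). These values pool libraries that contributed unequal shares, with 41, 2, 8 and 4 cells of the *Spp1*-high cluster from control replicates 1 and 2 and mutant replicates 1 and 2. Within libraries, the *Spp1*-high cluster was the lowest of the 6 for *Tmem119* in 4 of 4 and for *P2ry12* in 3 of 4, and the highest for *Tyrobp* in 4 of 4 and for *Trem2* in 3 of 4. *Tmem119* in the *Spp1*-high cluster was at 13.6, 55.6, 5.24 and 44.0 CPM in the same order of libraries. Outside control replicate 1 these values rest on few UMIs. *P2ry12* in it was at 410, 83.3, 184 and 220 CPM in the same order of libraries, and the exception was control replicate 1, where the *Fcrls*-led cluster was at 298 CPM. For *Trem2* the exception was control replicate 2, in which a *Siglech*- and *Crybb1*-led cluster was at 2423 CPM against 2194 CPM. For *Cx3cr1* and *Csf1r* the *Spp1*-high cluster was the lowest in 2 of 4 libraries each. *P2ry12* (1696 CPM), *Cx3cr1* (2698 CPM) and *Tmem119* (216 CPM) were the highest in 4 of 4 libraries in a cluster of 34 cells with *Siglech* among its leading genes, to which control replicate 2 and mutant replicate 2 gave 1 cell each. The pooled values of the C1q genes in the 6 clusters lay between 3357 and 4540 CPM. These clusters were formed from the same cells, and their levels are given as a description without a test.

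A cluster of 45 microglia-like cells led by *Cd52* and *Ighm* had a median of 4899 UMIs. In its 10 cells from mutant replicate 2 Cd74, a gene of antigen presentation also high in other blood cells, was at 2957 CPM, against 0 to 489 CPM in its cells from the other libraries, and the part of other cells in this cluster was not tested. In the same 10 cells *C1qa*, *C1qb* and *C1qc* were at 1457, 1393 and 1071 CPM, against 3554 to 4755, 3607 to 4263 and 2665 to 4440 CPM in its cells from the other libraries. Of the 253 microglia, 3 held no UMI of any of the 9 genes, of which 2 were in mutant replicate 2. Without this cluster, a setting also chosen after seeing the data, no gene passed by genotype in microglia, and the fitted log2 changes of *P2ry12* and *Trem2* were 0.42 and -0.30.

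**Figure D3:**
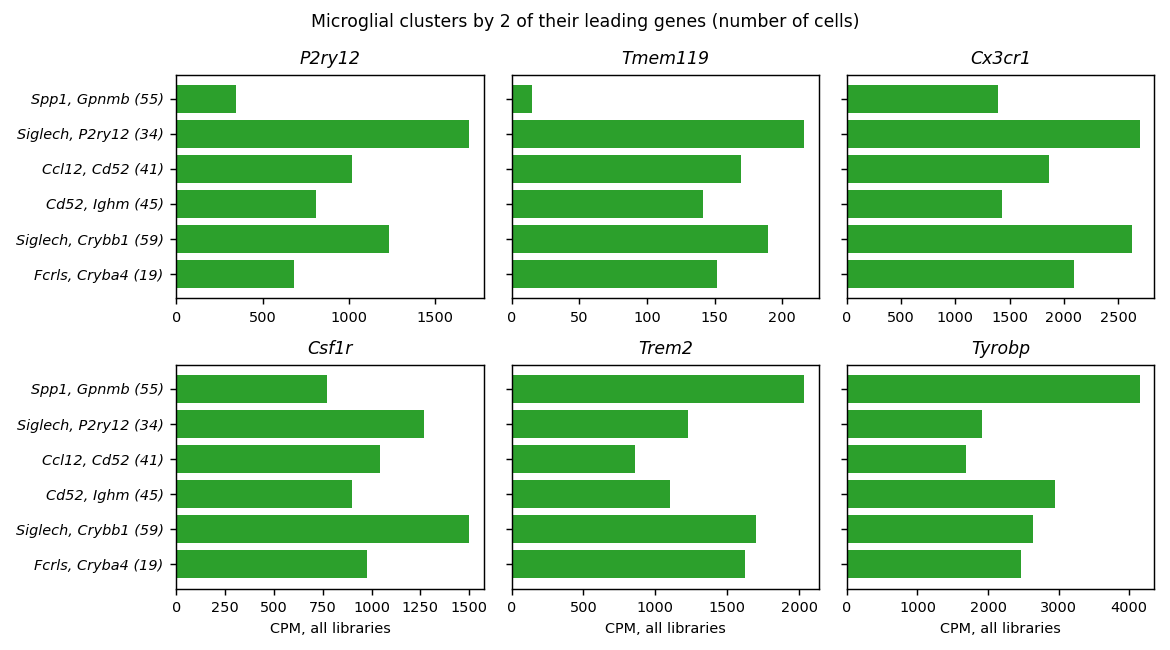
Level of 6 genes (CPM over all libraries, linear axes starting at 0) in the 6 microglial clusters, each named by 2 of its leading genes with its number of cells in parentheses. In these pooled values, to which the libraries contributed unequal shares, the *Spp1*, *Gpnmb* cluster has the lowest *P2ry12* (347 CPM) and *Tmem119* (14.9 CPM) and the highest *Trem2* (2036 CPM) and *Tyrobp* (4149 CPM).

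The central comparison of the study, mutant against control, was made within microglia. None of the 9 genes passed the test. Of all 6247 genes tested in microglia, 0% passed (0 genes, with 46 at an unadjusted p under 0.05 and 1 called by DESeq2), so the absence of calls among the 9 is not particular to them. The levels of *P2ry12* in both mutant libraries lay above those in both control libraries (mean 827 ± 1.51 CPM in the control and 1026 ± 166 CPM in the mutant, SD, n = 2), and the fitted log2 change was 0.29 (SE 0.31, 95% interval -0.44 to 1.02, adjusted p = 0.99982). For *Trem2* both mutant libraries lay below both control libraries (1710 ± 143 CPM and 1348 ± 270 CPM), and the change was -0.36 (SE 0.32, interval -1.12 to 0.39, adjusted p = 0.99982). Both stayed apart after TMM scaling, and on that scale such separation of the genotypes was found in 22% of all genes tested. For *Tyrobp* the genotypes overlapped in CPM (2895 ± 60.1 and 2836 ± 32.8 CPM) and separated after TMM scaling, with a change of -0.054 (interval -0.72 to 0.61).

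The other 6 overlapped between genotypes. The log2 changes of the C1q genes were -0.17 for *C1qa* (interval -0.91 to 0.57), -0.013 for *C1qb* (-0.77 to 0.75) and -0.045 for *C1qc* (-0.71 to 0.62). Those of the receptors were -0.017 for *Cx3cr1* (-0.95 to 0.91), 0.074 for *Csf1r* (-0.997 to 1.14) and 0.39 for *Tmem119* (-0.81 to 1.59). The intervals show how large a change this fit of 2 libraries per genotype could have missed. The fit did not use the replicate number, so differences between replicates widen them. *P2ry12* and *Tmem119* were higher in the mutant within both replicate pairs (0.11 and 0.44, and 0.56 and 0.23), and *Trem2*, *C1qa* and *Tyrobp* lower (-0.50 and -0.26, -0.36 and -0.023, and -0.065 and -0.044), while the remaining 4 changed direction between pairs. In an alternative fit with the replicate number as a block, 30 genes passed (21 higher and 9 lower in the mutant, 0.48% of those tested) and none of the 9 was among them. *Trem2* came closest, at -0.38 with an unadjusted p of 0.0429 and an adjusted p of 0.887. The p-values of the block fit match a normal distribution of the change over its SE. They thus rest on a spread pooled over genes and not on each gene's own spread between pools. Not all of the 30 changed in the same direction in both pairs, as with *Tnfaip2* (1.98 and -1.02).

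**Figure D4:**
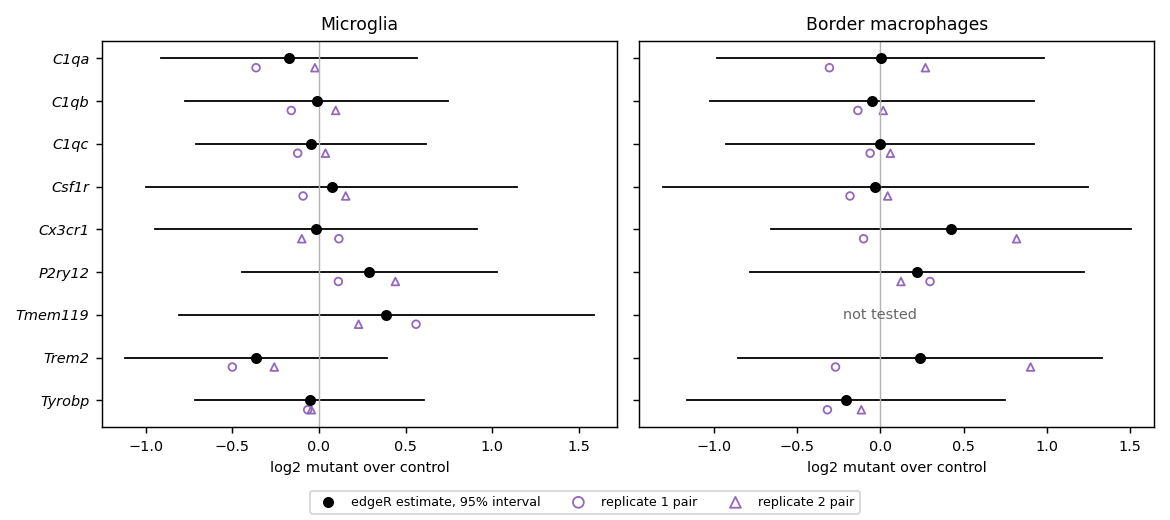
Log2 change of mutant over control for each gene in microglia (left) and border macrophages (right), with the edgeR estimate and its 95% interval in black and the change within each replicate pair as open symbols. Every interval includes 0, and *Tmem119* was too low to be tested in border macrophages.

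In border macrophages 8 of the 9 genes were tested by genotype, since *Tmem119* was too low, and none passed (0% of 4698 genes, with 22 at an unadjusted p under 0.05; with the replicate block 1 gene passed, which was none of the 9). *Trem2* changed by 0.24 (interval -0.86 to 1.33), with -0.27 in the replicate 1 pair and 0.90 in the replicate 2 pair, and *Cx3cr1* by 0.42 (-0.66 to 1.51), with -0.10 and 0.82. *Tyrobp* changed by -0.21 (-1.16 to 0.75) and *P2ry12* by 0.22 (-0.79 to 1.23). The 3 C1q genes and *Csf1r* changed by between -0.050 and 0.0016. In CPM the genotypes overlapped for every one of the 9. After TMM scaling they overlapped for each of the 8 tested, where 21.1% of all genes tested did not overlap. The difference of the genotype effect between microglia and border macrophages was tested directly as an interaction. None of the 8 genes tested in both types passed (adjusted p = 0.99989 for each), and 0.0394% of 5071 genes did. For *Trem2* the difference was -0.55 (interval -1.27 to 0.17).

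No gene of the functional lists passed by genotype in microglia either. The median log2 change was -0.15 for 7 other complement genes tested, -0.078 for 10 genes downstream of TREM2 and TYROBP, -0.097 for 11 myeloid transcription factors and 0.10 for 15 other genes of microglial identity, beside -0.012 for all genes. Fitted changes were larger for genes induced by tissue dissociation. All 15 on the list had a higher fitted level in mutant microglia (median 0.72), as did 48.6% of all genes tested. In border macrophages 2 of 15 did (median -0.39), as did 51.6% of all genes tested, and 0 of the 15 passed in either type. In microglia *Hspa1b* (-0.98 and 2.45 in the replicate 1 and 2 pairs), *Hspa1a*, *Fos*, *Egr1* and *Ccl3* changed direction between the pairs. With the replicate block, *Atf3*, *Ier2* and *Ccl4* of this list were higher in mutant microglia, as was *Gpr84* of the identity list, and *Apoe* (-0.83) and *Pf4* (-1.74) were lower. The part of dissociation in the levels of the 9 genes was not tested.

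The share of immune cells among sorted cells was compared as well, since it sets how much of these transcripts a library holds. Microglia made up 2.49 and 0.740% of cells in control replicates 1 and 2 and 0.866 and 1.22% in mutant replicates 1 and 2. The means were 1.61 ± 1.24% and 1.04 ± 0.25% (SD, n = 2), a difference of -0.571 percentage points (exact two-sided permutation test, p = 1.0), which was 0.303 without control replicate 1. Border macrophages made up 1.09 and 0.437% in the control and 0.406 and 0.366% in the mutant libraries (0.762 ± 0.459% and 0.386 ± 0.029%, exact permutation p = 0.333), and the difference of -0.376 percentage points was -0.0513 without control replicate 1, a setting chosen after seeing the data. With 2 libraries per genotype the smallest p that this test can give is 0.333. Control replicate 1 held 142 of the 253 microglia, so the pooled levels lean on it.

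Outside the immune cells, the 9 genes were near 0 but not in the ratio seen in microglia. In other cells with fewer than 10 UMIs of these genes, *P2ry12* made up 44.3% and *Cx3cr1* 30.7% of the UMIs of the 9, against 4.33% and 9.51% in microglia. The level in these cells with fewer than 10 such UMIs was also set against that in microglia. It was 0.01% of the microglial level for each C1q gene, 0.011% for *Trem2*, 0.009% for *Tyrobp* and 0.068% for *Csf1r*. It was 0.173% for *Cx3cr1*, 0.322% for *Tmem119* and 0.549% for *P2ry12*. The 11 other cells with 10 or more such UMIs were left out. With them *C1qa* was at 0.824 CPM rather than 0.405 CPM, and *Cx3cr1* at 3.66 CPM rather than 3.32 CPM. For *P2ry12* this percentage was 0.807 and 0.797 in control and mutant replicate 1 and 0.117 and 0.068 in control and mutant replicate 2, and for *Cx3cr1* it was 0.264 and 0.293 against 0.008 and 0.013. Both genes were thus counted outside the immune cells mainly in replicate 1, in both genotypes.

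In all other cells together *P2ry12* was at 6.999 CPM (993 UMIs) in replicate 1 and 0.886 CPM (69 UMIs) in replicate 2, and *Cx3cr1* at 5.34 CPM (757 UMIs) and 0.616 CPM (48 UMIs). The C1q genes, *Trem2* and *Tyrobp* stayed between 0.218 and 1.06 CPM in both. *Med12l*, the gene around *P2ry12* on the other strand, was at 70.0 CPM in replicate 1 and 21.1 CPM in replicate 2. Across the 12 other groups of cells in replicate 1 (11 named types and the unnamed cells), Pearson's r between the log2 levels (CPM plus 1) of *P2ry12* and *Med12l* was 0.832, and 0.801 without the unnamed cells. The groups share libraries, and no p is given. For *Cx3cr1* the largest r was that with *Ttc21a* (0.716), and it was 0.159 without ependymal cells, while those with *Wdr48*, *Gorasp1* and *Csrnp1* were 0.164, -0.076 and -0.255. Ependymal cells, in which the ciliary gene *Ttc21a* was at 148 CPM in replicate 1 and 208 CPM in replicate 2, held *Cx3cr1* at 17.8 and 21.1 CPM in control and mutant replicate 1 (97 and 113 UMIs) and at 0.312 and 0.317 CPM in control and mutant replicate 2 (1 UMI each). *P2ry12* and *Cx3cr1* have 44054 and 163759 intronic bases, and the C1q genes, *Tmem119*, *Trem2* and *Tyrobp* 1331 to 4971. *Csf1r* has 25778 intronic bases and was at 1.04 and 0.436 CPM in all other cells of replicates 1 and 2. The headers name Cell Ranger 7.0.0 for replicate 1 and 5.0.1 for replicate 2. The first counts intronic reads by default and the second does not, but the setting used is not given in the sources used here, and its part in these counts was not tested.

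**Figure D5:**
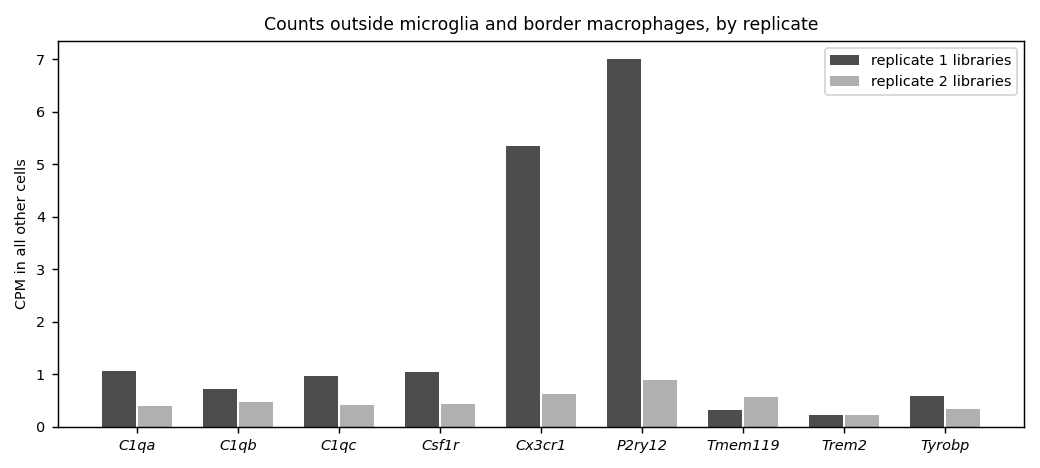
Level of each gene in all cells other than microglia and border macrophages (CPM, linear axis from 0), summed over both libraries of replicate 1 (dark) and of replicate 2 (light), with no error bars since each bar is 1 sum. *P2ry12* and *Cx3cr1* stand out in replicate 1, at 6.999 and 5.34 CPM, and no other bar is above 1.06 CPM.

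*Tmem119* was the only one of the 9 whose pooled level in another named type, fibroblasts (40.3 CPM), was above that in border macrophages (18.3 CPM). In 102 fibroblasts it was at 39.9, 71.2, 19.4 and 47.3 CPM in control replicates 1 and 2 and mutant replicates 1 and 2 (21, 15, 8 and 16 UMIs), which lay below microglia in every library. Exact Poisson 95% intervals, for counting error only, ran from 24.7 to 61.1 CPM in control replicate 1 and from 8.37 to 38.2 CPM in mutant replicate 1. The fibroblast range overlapped that of border macrophages (9.21 to 23.4 CPM). None of the other 8 genes had more than 3 UMIs in fibroblasts. Pericytes followed at 1.28 CPM (8 UMIs).

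Over the 50 sums of at least 10 cells per type and library, the genes whose level (log2 of CPM plus 1) followed the mean of the 9 most closely, of 17464 compared, were *Fcrls* (r = 0.993), *Cd300c2* (0.991), *Aif1* (0.990), *Vav1* (0.989) and *Itgam* (0.989). Of the 9 themselves, *Tyrobp* followed the mean most closely (0.993), and *Cx3cr1* (0.964), *P2ry12* (0.919) and *Tmem119* (0.784) least. The sums share libraries and a few immune sums set the correlation, so no p is given.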

How the data were processed

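Counts of UMIs per gene and barcode were deposited by the authors for 4 libraries, unnormalized, from 10x Genomics 3′ v3.1 chemistry with an input of 5000 cells, mapped to mm10. The file headers name Cell Ranger 7.0.0 (replicate 1) and 5.0.1 (replicate 2), whereas the methods state version 7.0.0 for all and the submitters' processing notes 3.0.

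Barcodes were kept if they had 2000 to 40000 UMIs, 1000 genes or more and no more than 10% of counts from mitochondrial genes, and were clustered with scanpy 1.11.5 (anndata 0.12.19, Python 3.11.15) on 2000 variable genes, 30 principal components and 15 neighbours at resolution 1, centred within each library. A second pass over the immune cells (15 components, resolution 1) was added after the first had merged microglia with border macrophages. Of 37 clusters, 353 cells stayed unnamed. Doublets were marked with Scrublet (0.202 to 2.79% per library) and removed only as an alternative.

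Counts were summed per library and type, and each sum of the main setting held at least 10 cells. At the mitochondrial limit of 5% some tested sums held fewer. The sums were tested with edgeR 4.0.16 (R 4.3.3, limma 3.58.1, quasi-likelihood, filterByExpr, TMM, prior count 2) against genotype, or with library as a block between types. Benjamini-Hochberg adjustment ran over all genes tested, with a threshold of 0.05. CPM is the summed count per 1000000 UMIs of those cells. The fits were also run on simulated counts, and the outcome is not reported here. The alternatives were DESeq2 1.42.0, no TMM scaling, other filters on counts, a replicate block, other cell filters, doublets removed, the 9 genes kept for clustering, resolution 2, and each library left out. The named genes were the 9, *Chd8*, list genes past the threshold (at most 6 per direction, or the 5 highest by level; between types, without those above the low-count filter in only 1 type) and the 5 most like the 9; *Xist*, genes overlapping the 9, ligands and leading genes of clusters were named after their values were seen. Some genes that met these rules are not reported here. The 9 genes and all lists were chosen with earlier results of these data known.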

Additional observations from a re-analysis of the deposited data

Results flagged for a closer look

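*Icam1* and *Ccl4* were the 2 genes whose genotype effect differed between microglia and border macrophages by the interaction test (edgeR quasi-likelihood, Benjamini-Hochberg), and neither belongs to the 9. For *Icam1*, which encodes an adhesion molecule, the effect in microglia exceeded that in border macrophages by 3.88 on the log2 scale (SE 0.62, adjusted p = 0.0283). The changes were 0.999 in microglia (95% interval 0.097 to 1.90) and -2.92 in border macrophages (-4.40 to -1.44). Neither passed on its own in the edgeR test within its type (adjusted p = 0.99982 and 0.99997). For *Ccl4*, a chemokine induced by tissue dissociation, the difference was 3.79 (SE 0.32, adjusted p = 1.28e-05), with 0.61 and 1.05 in the 2 replicate pairs of microglia and -2.87 and -3.15 in those of border macrophages. Neither change of *Ccl4* passed within its type without the replicate block. In the *Ccl7*-led cluster of border macrophages *Ccl4* was at 1407 and 1022 CPM in control replicates 1 and 2 and at 0 and 284 CPM in mutant replicates 1 and 2. In the same order it was at 775, 1697, 225 and 115 CPM in the *Ms4a7*-led cluster and at 415, 88.7, 15.2 and 0 CPM in the *Pf4*-led cluster. The *Ccl7*-led cluster held 28 of 62 and 3 of 13 border macrophages in control replicates 1 and 2. It held 3 of 23 and 2 of 12 in mutant replicates 1 and 2, and the part of the clusters in the difference was not tested.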

How the results depend on the processing

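No genotype change of the 9 genes passed under any alternative (153 values over genes and settings), and *P2ry12*, *Trem2* and *Cx3cr1* passed between microglia and border macrophages in every setting in which they were tested (log2 1.77 to 2.30, 1.82 to 2.21 and 1.32 to 1.82). The replicate numbers gave 2 pairs. The differences between replicates correlated between the genotypes at 0.618 over 6247 genes in microglia and 0.552 over 4698 in border macrophages. The libraries thus shared differences by replicate number, which the main fit left in its error. The fit with the replicate number as a block took them out but rests on these 2 pairs. With the replicate number as a block the genes passing by genotype in microglia went from 0 to 30, and in border macrophages to 1 (*Ccl4*, -2.98, adjusted p = 0.036). They were 1 with DESeq2, 14 without a filter and 0 to 10 with 1 library left out. Between the types 947 genes passed, against 626 with DESeq2, 402 with at least 10 counts in every sum, 2360 without a filter and 451 to 1156 with 1 library left out, the lowest without control replicate 1.

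Genotype changes near 0 turned direction, without passing: *C1qb* 0.014 and *Cx3cr1* 0.017 without scaling, 0.010 and 0.017 with at least 10 counts in every library, *Cx3cr1* 0.010 with the block, *C1qb* 0.023 without doublets, and *C1qb* 0.077, *C1qc* 0.028 and *Cx3cr1* 0.031 without the *Cd52*- and *Ighm*-led cluster. With 1 library left out the ranges were 0.085 to 0.49 for *P2ry12*, -0.62 to -0.13 for *Trem2*, -0.44 to 0.070 for *C1qa*, -0.30 to 0.24 for *C1qb*, -0.12 to 0.049 for *C1qc*, -0.37 to 0.46 for *Cx3cr1*, -0.55 to 0.53 for *Csf1r* and -0.15 to 1.06 for *Tmem119*. A mitochondrial limit of 5%, which left 3 microglia in control replicate 2, gave 1.09 for *P2ry12*, -0.11 for *Trem2*, 0.35 for *C1qa*, 0.41 for *C1qb*, 0.39 for *C1qc*, 1.08 for *Cx3cr1* and 0.17 for *Tyrobp*, and for *Csf1r* between types -0.035, against -0.054 without doublets and -0.038 without the *Ms4a7*- and *Cd86*-led cluster. Removing doublets also ended the calls of the C1q genes (0.11 to 0.27) and *Tyrobp* (0.27), the 5% limit those of the C1q genes (0.16 to 0.38), and without a filter *Csf1r* passed (0.48). The 3 settings that leave out a cluster were chosen after seeing the data. The causes were not tested. The difference in the share of border macrophages was -0.70 to -0.051 percentage points with 1 library left out. Border macrophage sums held 12 to 62 cells per library in the main setting. At the 5% limit they held 8 cells in control replicate 2 and 7 in mutant replicate 2.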
